A study of Mus musculus with 6 samples.

Results

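The genes described here are 8 genes of muscle atrophy, of 54532 genes in a table of RNA levels in mouse bone. They are the ubiquitin ligase genes Fbxo32, Trim63 and Fbxo30, the transcription factor genes Foxo1, Foxo3 and Klf15, the myostatin gene Mstn and the stress gene Gadd45a. They were taken by gene symbol, and the set was chosen from these same libraries because Fbxo32 and Trim63 were higher in knockout bone while muscle genes were lower. For that reason the differences of the 8 genes and of the muscle genes between the genotypes are given as descriptions, with no p-value, and counts of them past a threshold support nothing.

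RNA was sequenced from bone of female C57BL/6J mice aged 16 weeks, in 3 libraries labelled wild type (WT) and 3 labelled MIR29cb2-/- (KO), with no treatment named for either group. The deleted cluster is the source of 2 microRNAs, miR-29c and the miR-29b copy called miR-29b-2, and the labels name no tissue-specific allele. The labels name neither the bone, nor whether marrow and attached muscle were removed, nor whether each library came from its own mouse. P-values therefore measure library-to-library spread, part of which may be technical.

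When muscle wastes, during fasting, denervation, disuse, inflammation or glucocorticoid treatment, its contractile proteins are tagged with ubiquitin and degraded by the proteasome. Fbxo32 (atrogin-1) is the substrate-binding subunit of an SCF ubiquitin ligase and Trim63 (MuRF1) is a RING-finger ligase of the sarcomere, and RNA of both is widely used as a marker of wasting. FOXO transcription factors, held in the cytoplasm by insulin and AKT signalling, and the glucocorticoid receptor switch these genes on, while myostatin restrains muscle growth through activin receptors.

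The sequences through which the deleted microRNAs could meet these RNAs are shown first. The seed of a microRNA is its bases 2 to 8, in capitals below, and the seed is shared by the products of the deleted cluster (miR-29b and miR-29c) and by miR-29a, which is made, with another copy of miR-29b, from chromosome 6. The mature sequences are from RefSeq (GRCm38.p6), at chr1:195037091-195037113 and chr1:195037600-195037621, both on the plus strand, and at chr6:31062673-31062694 on the minus strand.
mmu-miR-29b-3p: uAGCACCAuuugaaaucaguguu
mmu-miR-29c-3p: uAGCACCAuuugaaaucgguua
mmu-miR-29a-3p: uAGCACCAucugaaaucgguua

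The 7-base match to this seed, TGGTGCT, was searched in the longest annotated 3′ UTR of each gene (GENCODE M21, mm10). It was found 1 time each in Fbxo32, Foxo1, Foxo3 and Trim63, and not in Fbxo30, Gadd45a, Klf15 or Mstn. Among 11685 tested genes with a 3′ UTR, 1956 (16.7%) held it. The UTRs of Fbxo32, Foxo1 and Foxo3, at 5587, 6240 and 4490 bases, are long against a median of 1296, while that of Trim63 has 714. A match is a description of the letters and not evidence of binding. The 30 bases around each match are given 5′ to 3′ on the strand of the gene, with the match in capitals, at chr15:58179208-58179237 (minus strand) for Fbxo32, chr3:52352540-52352569 (plus) for Foxo1, chr10:42185018-42185047 (minus) for Foxo3 and chr4:134329199-134329228 (plus) for Trim63.
Fbxo32: cagcctgctctgTGGTGCTtttcagagatg
Foxo1: aagaatggctgaTGGTGCTggcattcctct
Foxo3: tccaaaaagttaTGGTGCTgtataggtgct
Trim63: tgtatgccaattTGGTGCTttttgtacgag

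The promoter of Trim63 is shown because it held both motifs that were searched. Promoters (RefSeq, GRCm38.p6, from 250 bases before the start to 50 bases from the start on) were found for 7 of the 8 genes, all but Fbxo32. On both strands they were searched for the core FOXO motif GTAAACA and for the glucocorticoid receptor palindrome GAACANNNTGTTC. The Trim63 promoter, chr4:134314870-134315169 on the plus strand, held the palindrome at bases -208 to -196 from the start and the FOXO motif, read on the minus strand, at bases -194 to -188, both in capitals.
Trim63 promoter: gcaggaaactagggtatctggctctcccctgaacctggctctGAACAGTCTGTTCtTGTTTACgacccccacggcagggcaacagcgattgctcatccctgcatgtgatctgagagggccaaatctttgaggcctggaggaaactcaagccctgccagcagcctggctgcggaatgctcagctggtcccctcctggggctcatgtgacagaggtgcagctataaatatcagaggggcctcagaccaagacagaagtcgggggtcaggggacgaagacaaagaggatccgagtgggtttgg
Of 32851 promoters of this length, 1199 (3.65%) held the FOXO motif, 19 (0.0578%) the palindrome and 2 both, Trim63 and the predicted gene Gm31658. Neither motif was in these windows of the other 6 genes. Both motifs belong to regulators named above as switching Fbxo32 and Trim63 on. As with the seed matches, a motif match is a description of the letters and not evidence of binding.

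The libraries held 16727100 to 20118000 reads. Levels are in FPKM, fragments per kilobase of exon scaled to library depth, which sets genes of unequal length and libraries of unequal depth on 1 scale. WT replicate 2 and KO replicate 1 stood apart, with FPKM totals of 489576 and 487102 against 355787 to 404994 in the other 4, and with long genes low against their group mean (Spearman's rho with exon length across genes of -0.421 and -0.445). In the other 4 rho was 0.184 to 0.413. Since deviations from a group mean cancel within the group, rho alone does not single out WT replicate 2 and KO replicate 1. Without these 2 libraries, log2 changes are given below for each of the 8 genes, and the calls that remain are given for the gene lists. Mir29b-2 and Mir29c, whose products are too short for this kind of library, were listed at 0 in all 6 libraries, so no lost transcript was there to check the labels. Their host transcript A330023F24Rik, named after its values were seen, stood at 0.136 to 0.197 FPKM in WT and 2.51 to 4.08 in KO. It passed in limma as higher in KO (log2 change 1.87, adjusted p = 0.00676), also with any 1 library left out. The cause of this difference was not tested. The osteoblast gene Bglap (446 to 1015 FPKM in WT, 132 to 414 in KO) and the muscle actin gene Acta1 (1314 to 2437 and 595 to 965) showed that RNA of bone and of skeletal muscle was in every library.

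All 8 genes had a mean of at least 1 FPKM, the minimum for the comparison across 13619 genes by limma on log2(FPKM + 1). With an adjusted p under 0.05, 2 of the 8, Fbxo32 and Trim63, were among the 1.34% of genes higher in KO, and 0 were among the 3.82% lower in KO. The 3 KO values did not overlap the 3 WT values for Fbxo32 and Trim63, which were higher in KO as were 14.7% of genes, nor for Foxo1 and Mstn, which were lower as were 13.7% of genes. The other 4 overlapped. Since the 8 genes were chosen on this contrast, nothing is read from these shares. Their median log2 change was 0.026, against 0.06 over all 13619 genes.

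**Figure D1:**
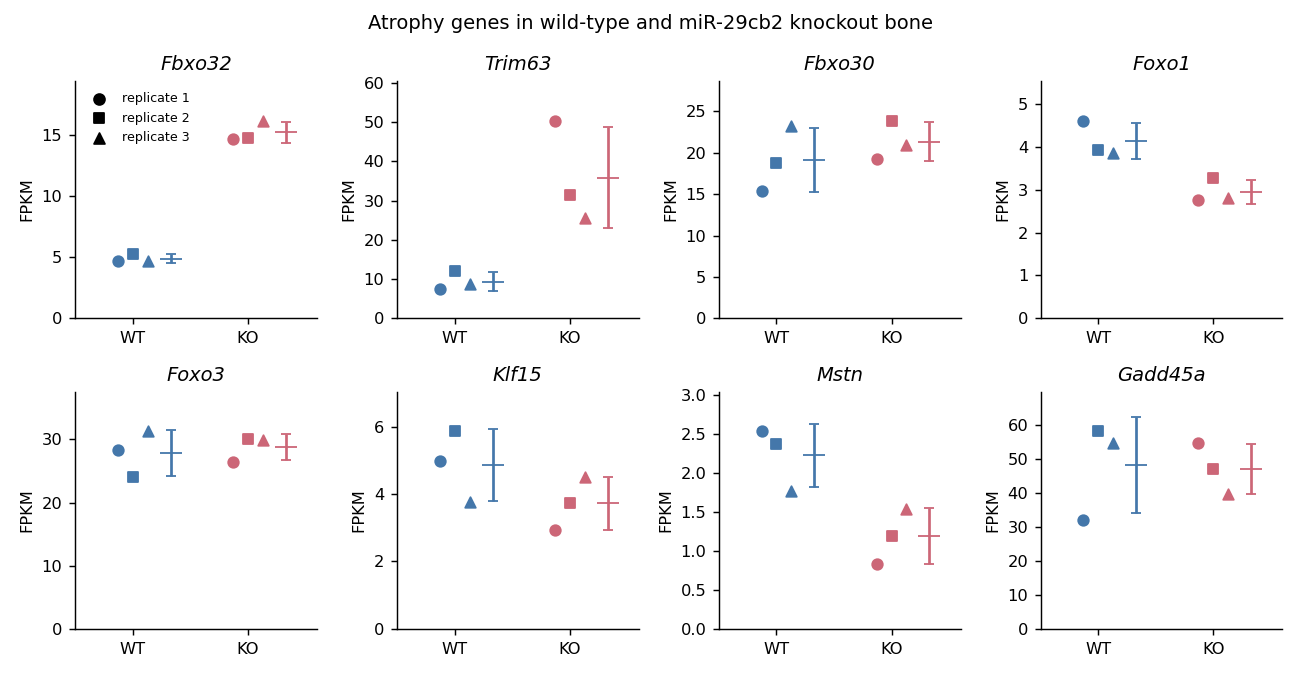
FPKM (y axis, each panel from 0) of the 8 atrophy genes in WT (blue) and KO (red) bone. Each point is 1 library, the symbol gives the replicate number, and the bars beside the points are the mean and SD of 3 libraries. Fbxo32 and Trim63 stand apart between the genotypes with KO above WT, Foxo1 and Mstn with KO below WT, and the other 4 overlap.

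Fbxo32 (ENSMUSG00000022358, chr15:58175879-58214932, minus strand, mm10) stood at 4.7, 5.28 and 4.65 FPKM in WT replicates 1 to 3 and at 14.7, 14.8 and 16.2 FPKM in KO replicates 1 to 3. The libraries of a genotype lay close together and the 2 genotypes were far apart, with every KO library above every WT library. The means were 4.88 ± 0.35 and 15.2 ± 0.829 FPKM (SD, n = 3), a ratio of 3.12 and a change of 1.47 ± 0.11 (SE) on the log2(FPKM + 1) scale, which ranked it 30 of 13619 genes from the top. That rank restates the choice of Fbxo32 as higher in KO. The values rest on 586 to 1955 reads a library, for which counting error alone is 2.26% to 4.13%. The antisense gene Gm15943, which overlaps the start of Fbxo32 on the other strand, stood at no more than 0.158 FPKM in any library.

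Trim63 (ENSMUSG00000028834, chr4:134315120-134329629, plus strand) stood at 7.33, 12.1 and 8.64 FPKM in WT replicates 1 to 3 and at 50.4, 31.5 and 25.6 FPKM in KO replicates 1 to 3. The lowest KO library was above the highest WT library, but the KO libraries were spread widely, and KO replicate 1, which stood apart in its FPKM total, was far above the other KO libraries. The means were 9.34 ± 2.44 and 35.8 ± 13 FPKM (SD, n = 3), a ratio of 3.83 and a log2 change of 1.80 ± 0.27 (SE), which ranked it 14 of 13619, a rank that again restates the choice. The coefficient of variation in KO was 36.2%, against 5.44% for Fbxo32, while counting error from 429 to 2376 reads was 2.05% to 4.83%.

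Fbxo32 and Trim63 were both highest in replicate 2 among the WT libraries, and ran apart among the KO libraries. The FPKM of Trim63 divided by that of Fbxo32 was 1.56, 2.28 and 1.86 in WT replicates 1 to 3 and 3.42, 2.13 and 1.58 in KO replicates 1 to 3, so the ranges overlapped. Trim63 was highest in KO replicate 1, where Fbxo32 was at the level of KO replicate 2. Without WT replicate 2 and KO replicate 1 the log2 change was 1.54 for Fbxo32 and 1.71 for Trim63. Over all 18 alternative settings it ran from 1.42 to 1.62 for Fbxo32 and from 1.53 to 2.01 for Trim63.

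Fbxo30, an F-box gene also known as MUSA1 that is induced in denervated muscle, was not like Fbxo32. Its levels (chr10:11281330-11298052, plus strand) were 15.4, 18.8 and 23.2 FPKM in WT replicates 1 to 3 and 19.3, 23.9 and 20.9 FPKM in KO replicates 1 to 3. The KO values lay among and just above the WT values, with means of 19.2 ± 3.9 and 21.4 ± 2.3 FPKM (SD, n = 3) and a log2 change of 0.16 ± 0.17 (SE), or 0.23 without WT replicate 2 and KO replicate 1.

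Of the FOXO factors, Foxo1 was lower in KO and Foxo3 overlapped. Foxo1 (chr3:52268336-52353221, plus strand) stood at 4.62, 3.93 and 3.87 FPKM in WT replicates 1 to 3 and at 2.76, 3.27 and 2.81 FPKM in KO replicates 1 to 3. Every KO library was below every WT library, opposite to the direction of Fbxo32 and Trim63, with means of 4.14 ± 0.415 and 2.94 ± 0.281 FPKM (SD, n = 3), a ratio of 0.711 and a log2 change of -0.38 ± 0.12 (SE), which was the same without both libraries that stood apart. Gm38034 and Gm20402, which lie within Foxo1, were at most at 0.0875 FPKM.

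Foxo3 (chr10:42181841-42276755, minus strand), at 28.3, 24 and 31.3 FPKM in WT replicates 1 to 3 and 26.5, 30 and 29.9 FPKM in KO replicates 1 to 3, overlapped between the genotypes. Its means were 27.8 ± 3.67 and 28.8 ± 2 FPKM (SD, n = 3), and its log2 change of 0.051 ± 0.14 (SE) changed sign among the alternative settings (-0.049 to 0.14) and was 0.008 without both libraries that stood apart. Foxo3 RNA was above Foxo1 RNA per length in every library. FOXO activity is set largely by phosphorylation and by place in the cell, which RNA levels do not measure.

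Klf15, a zinc-finger factor induced by glucocorticoids that switches on genes of amino acid breakdown, leaned lower in KO without a clear gap. It stood (chr6:90462576-90475238, plus strand) at 4.99, 5.86 and 3.75 FPKM in WT replicates 1 to 3 and at 2.92, 3.74 and 4.51 FPKM in KO replicates 1 to 3. KO replicates 1 and 2 were below all WT libraries, and KO replicate 3 was above WT replicate 3. The means were 4.87 ± 1.06 and 3.73 ± 0.798 FPKM (SD, n = 3) and the log2 change was -0.31 ± 0.19 (SE), or -0.061 without WT replicate 2 and KO replicate 1.

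Mstn, the gene of the muscle-secreted growth inhibitor myostatin, had the lowest levels of the 8. It stood (chr1:53061640-53068079, plus strand) at 2.53, 2.37 and 1.76 FPKM in WT replicates 1 to 3 and at 0.825, 1.19 and 1.54 FPKM in KO replicates 1 to 3, with every KO library below every WT library. The means were 2.22 ± 0.405 and 1.18 ± 0.357 FPKM (SD, n = 3), a ratio of 0.533, and the log2 change was -0.57 ± 0.18 (SE). These are low levels, from 37 to 141 reads, with a counting error of 8.42% to 16.4%, and on the log2(FPKM + 1) scale the pseudocount shrinks the change: it was -0.88 with a pseudocount of 0.1 and -0.41 without WT replicate 2 and KO replicate 1.

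Gadd45a, a stress gene induced in denervated muscle, had the same mean in both genotypes within its spread. Its levels (chr6:67035096-67037457, minus strand) were 32.2, 58.2 and 54.6 FPKM in WT replicates 1 to 3 and 54.6, 47.1 and 39.8 FPKM in KO replicates 1 to 3. The lowest library of all was WT replicate 1, and all KO libraries lay within the WT range. The means were 48.3 ± 14.1 and 47.2 ± 7.41 FPKM (SD, n = 3) and the log2 change was 0.00016 ± 0.25 (SE), or 0.044 without both libraries that stood apart. E230016M11Rik, which overlaps it on the other strand, stood at 0.347 to 0.703 FPKM.

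In order of mean level in WT bone, the genes ran from Gadd45a (48.3 FPKM) through Foxo3 (27.8), Fbxo30 (19.2), Trim63 (9.34), Fbxo32 (4.88), Klf15 (4.87) and Foxo1 (4.14) to Mstn (2.22). The WT values of Klf15 overlapped those of both Fbxo32 and Foxo1, so its place in this order is not set beyond the spread, and the lowest WT value of Fbxo32 (4.65) was just above the highest of Foxo1 (4.62). The other neighbours did not overlap. In KO bone Trim63 (35.8 FPKM) stood between Gadd45a (47.2) and Foxo3 (28.8), and its range of 25.6 to 50.4 FPKM overlapped theirs. Fbxo32 (15.2) lay below Fbxo30 (21.4) and above Klf15 (3.73), Foxo1 (2.94) and Mstn (1.18), with no overlap with any of these 4.

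The skeletal muscle markers, 31 genes of the sarcomere, calcium handling and muscle metabolism, were lower in KO bone. That muscle genes were lower was part of the reason for which the 8 genes were chosen, so it is described here without p-values. Of 28 markers tested, 26 had a log2 change below 0, with a median of -1.02, or -0.65 without both libraries that stood apart. The calcium store protein gene Casq1 stood at 117 ± 31.9 FPKM in WT and 30.3 ± 10.5 in KO (SD, n = 3), a log2 change of -1.94. The muscle enolase gene Eno3 stood at 438 ± 151 and 139 ± 35.9 FPKM, the myosin light chain gene Myl1 at 410 ± 96.1 and 178 ± 23.6, and the myosin heavy chain gene Myh2 at 23.4 ± 5.45 and 7.69 ± 3.06. All 3 KO values of these 4 genes were below all 3 WT values. In bulk RNA, less muscle tissue and less RNA per muscle fibre cannot be told apart. Past the limma threshold were 7 lower and 0 higher markers, a count that was 0 with no filter on low values, without WT replicate 1, KO replicate 1 or KO replicate 2, and without both libraries that stood apart. It was 1 without WT replicate 2, 2 without WT replicate 3 and 3 without KO replicate 3, and with array weights 18 were lower and 2 higher.

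The summed FPKM of the 31 markers was 8379, 13244 and 7155 in WT replicates 1 to 3 and 3567, 3704 and 5223 in KO replicates 1 to 3. Every KO sum was below every WT sum, a ratio of means of 0.434, and none of the 31 was listed at 0 in all libraries. Fbxo32 and Trim63 lay above their WT ranges in all 3 KO libraries, and the muscle sum lay below its own. Fbxo32 and Trim63 were chosen as higher in KO while muscle genes were lower. That these differences fell in the same libraries was therefore set by the choice, and nothing is read from it.

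Per 1000 FPKM of muscle markers, Fbxo32 stood at 0.561, 0.399 and 0.651 FPKM in WT replicates 1 to 3 and at 4.13, 3.99 and 3.1 FPKM in KO replicates 1 to 3, a ratio of means of 6.97. On the same relative scale Trim63 stood at 0.875, 0.911 and 1.21 in WT and at 14.1, 8.49 and 4.9 in KO, a ratio of 9.2. Since 2 genes chosen as higher were divided by genes chosen as lower, the direction and the gap between the genotypes were fixed by the choice, and nothing is read from these ratios. Among KO libraries both relative levels were lowest in KO replicate 3, where the muscle sum was highest. In FPKM itself, Fbxo32 was highest in KO replicate 3 (16.2) and Trim63 lowest (25.6). The relative level of Mstn was 0.302, 0.179 and 0.246 in WT and 0.231, 0.321 and 0.294 in KO. Its ratio was 1.16, with overlap, where its FPKM ratio was 0.533 and that of the muscle sum 0.434. The relative levels of Foxo1 and Gadd45a also overlapped, with ratios of 1.58 and 2.25, and those of Fbxo30, Foxo3 and Klf15 did not, with ratios of 2.44, 2.22 and 1.72. Because the divisor was lower in KO by choice, a gene with an unchanged mean FPKM also has a ratio above 1. Gadd45a, with an FPKM ratio of 0.977, is a case. Nothing is therefore read from the ratios or overlaps of these genes on this scale. Such a relative level assumes that a gene's RNA comes from muscle, which these libraries do not show for any of the 8 genes.

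The other muscle ligases are the nearest comparison for Fbxo32 and Trim63. Of 14 tested genes of this list 0 passed in either direction in limma, with a median log2 change of -0.17 and 3 at an unadjusted p under 0.05. Over all 13619 genes, 20.6% had an unadjusted p under 0.05, against which this count and those below are to be set. The gene with the smallest p was Asb2, a muscle ligase subunit, at 20.8 ± 1.25 FPKM in WT and 10.4 ± 4.04 in KO (SD over n = 3; log2 change -0.99, limma adjusted p = 0.0587). The closest relatives of Trim63 and a muscle F-box gene, chosen after their values were seen, had lower means in KO and did not pass. Trim54 (MuRF3) stood at 15.5 ± 3.66 and 10.5 ± 2.62 FPKM, Trim55 (MuRF2) at 2.52 ± 0.848 and 0.813 ± 0.378, and Fbxo40 at 8.3 ± 1.54 and 4.07 ± 1.88 (SD, n = 3). Their limma log2 changes were -0.51, -0.95 and -0.92, and the adjusted p-values 0.25, 0.07 and 0.095. Relative to the muscle markers, Asb2, Fbxo40 and Trim55 overlapped between the genotypes (ratios 1.05, 1.06 and 0.716), and Trim54 did not (1.54). The muscle markers were lower in KO by choice, so nothing is read from these relative levels.

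**Figure D2:**
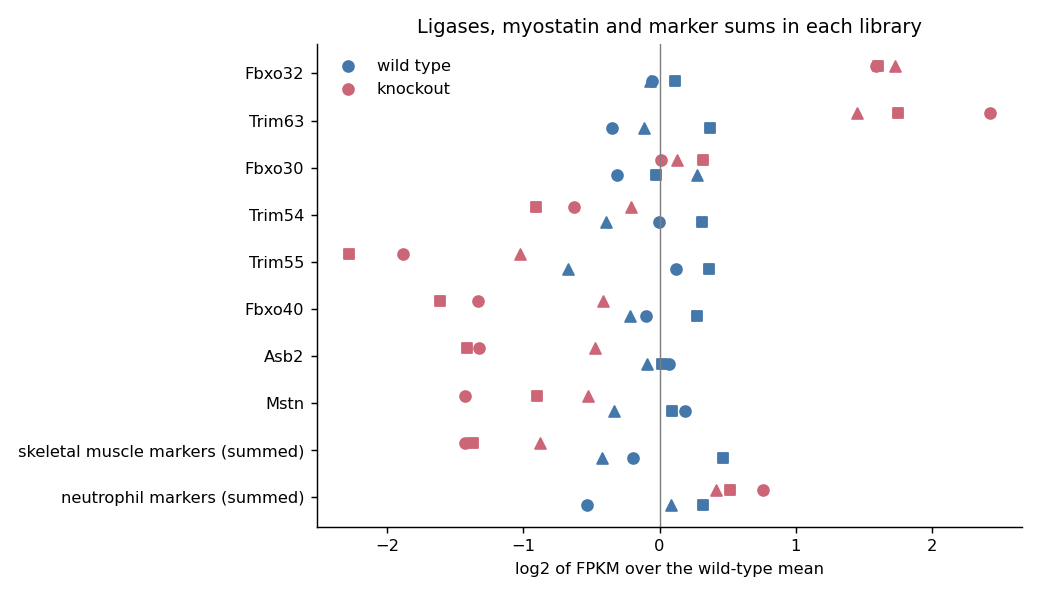
Log2 of the FPKM of each library over the WT mean (x axis) for muscle ubiquitin ligases, Mstn and the summed FPKM of the skeletal muscle and neutrophil markers (rows). Each symbol is 1 library, blue for WT and red for KO, and circles, squares and triangles are replicates 1, 2 and 3. Fbxo32, Trim63 and the neutrophil sum lie above the WT values in all 3 KO libraries, the KO values of Fbxo30 and Trim54 overlap those of WT, and Trim55, Fbxo40, Asb2, Mstn and the muscle sum lie below WT in all 3.

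The other members of the 2 ligase families are given for context only, since Fbxo32 and Trim63 were picked as higher and their rank in a family restates that choice. Among 26 tested genes with Fbxo symbols the gene other than Fbxo32 past the limma threshold was Fbxo33, named after its values were seen, which rose from 8.99 ± 0.454 to 13.3 ± 0.513 FPKM (SD over n = 3; log2 change 0.52, limma adjusted p = 0.0366). The call of Fbxo33 was lost when any of the 6 libraries was left out, with limma adjusted p-values of 0.00488 to 0.173 over the alternatives. The median log2 change of the 26 was -0.03. The 41 tested TRIM genes had a median log2 change of 0.022, the largest after Trim63 being 0.41 (Trim11), and none besides Trim63 passed.

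In the wider ubiquitin system, the list of ubiquitin, its conjugating enzymes, the SCF core and deubiquitinases had 0 of 16 tested genes past the limma threshold, 3 at an unadjusted p under 0.05, and a median log2 change of 0.10. Proteasome subunits had 0 of 31 past the limma threshold and 0 at an unadjusted p under 0.05. The log2 change was above 0 for 31 of 31, with a median of 0.21, against 0.06 over all 13619 genes. Under other scalings 30 (median-of-ratios) and 28 (quantile) of the 31 were above 0, with medians of 0.18 and 0.14. Without both libraries that stood apart the median was 0.14. The cause of this small shared shift was not tested. Psmd14, a deubiquitinase of the proteasome lid, stood at 28.4 ± 2.65 FPKM in WT and 36.4 ± 5.79 in KO (SD, n = 3; limma adjusted p = 0.261). Of 16 genes of autophagy and the lysosome, 0 passed in limma and 0 had an unadjusted p under 0.05. Atg5, which is needed to form autophagosomes, stood at 16.6 ± 1.09 and 19.7 ± 0.864 FPKM (limma adjusted p = 0.271).

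Among 16 tested other FOXO factors and FOXO targets 0 passed in limma, 2 had an unadjusted p under 0.05 and the median log2 change was -0.029. Cited2, a transcriptional coregulator, had the smallest p, with 31.3 ± 3.7 and 43.6 ± 4.39 FPKM (SD, n = 3; limma adjusted p = 0.113). Foxo4, named after its values were seen, overlapped at 30.2 ± 2.34 and 27.5 ± 1.12 FPKM. Foxo6, also named after its values were seen and below the minimum level for a test, stood at 0.873, 0.607 and 0.445 FPKM in WT replicates 1 to 3 (47, 31 and 21 reads) and at 0.0692, 0.022 and 0.0884 FPKM in KO replicates 1 to 3 (3, 1 and 4 reads), with all KO values below WT. Pdk4, a kinase that blocks glucose oxidation and a FOXO target in muscle, also named after its values were seen, stood at 9.68, 10.6 and 9.04 FPKM in WT replicates 1 to 3 and at 43.5, 19.2 and 12.3 in KO replicates 1 to 3. All KO values of Pdk4 were above WT and in the same order as those of Trim63, and it did not pass in limma (log2 change 1.09, adjusted p = 0.181).

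Of 20 tested genes of insulin, IGF, PI3K and AKT signalling 1 fell, 0 rose and the median log2 change was 0.049. Igf1, the growth factor that drives muscle growth through AKT, fell from 5.01 ± 0.38 to 3.18 ± 0.0744 FPKM (SD over n = 3; log2 change -0.52, limma adjusted p = 0.0412). Akt1, named after its values were seen, stood at 51.9 ± 0.58 and 58.2 ± 1.65 FPKM and did not pass (limma adjusted p = 0.471). The call of Igf1 was lost when any of the 6 libraries was left out, with limma adjusted p-values from 0.00248 to 0.175 over the alternatives.

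Around Mstn, 17 genes of the myostatin, activin and BMP pathway were tested, of which 1 rose, 1 fell and 14 had a log2 change below 0 (median -0.14). Inhba, the subunit of activin A, a ligand that shares the receptors of myostatin, rose from 4.73 ± 0.431 to 9.81 ± 2.23 FPKM (SD over n = 3; log2 change 0.90, limma adjusted p = 0.0332). Dcn, the proteoglycan decorin, which binds myostatin, fell from 58.3 ± 14.9 to 19.8 ± 3.97 FPKM (limma adjusted p = 0.019, log2 change -1.50). Gdf11, the closest relative of Mstn, and the myostatin inhibitor Fst, named after their values were seen, did not pass. Gdf11 stood at 2.34 ± 0.303 and 1.3 ± 0.224 FPKM (limma adjusted p = 0.0813) and Fst at 1.18 ± 0.167 and 1.04 ± 0.267 (limma adjusted p = 0.777). The call of Inhba was lost without any 1 library other than KO replicate 1 (limma adjusted p up to 0.11), and that of Dcn without WT replicate 1 or KO replicate 2 (up to 0.0829).

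The list of glucocorticoid response genes and KLF15 targets held 3 of the 4 pathway genes that rose. Of 21 tested, 3 rose and 1 fell, and 9 had an unadjusted p under 0.05. The log2 change was above 0 for 11 and below 0 for 10, with a median of 0.047. Fkbp5, a chaperone of the glucocorticoid receptor and a standard reporter of its activity, rose from 6.25, 7.31 and 8.05 FPKM in WT replicates 1 to 3 to 14.5, 13 and 14.4 FPKM in KO replicates 1 to 3 (limma adjusted p = 0.0167, log2 change 0.87). Cebpb, a transcription factor of stress and myeloid cells, rose from 18.5 ± 8.11 to 46.8 ± 9.75 FPKM (SD over n = 3; log2 change 1.35, limma adjusted p = 0.0495). Hsd11b1, the enzyme that makes active glucocorticoid, had a log2 change of 0.78 and also rose (limma adjusted p = 0.0357). The gene that fell was Gpt, an alanine transaminase and target of KLF15, from 4.66 ± 0.0542 to 2.69 ± 0.469 FPKM (limma adjusted p = 0.0429, log2 change -0.63). Tsc22d3, another standard glucocorticoid target, named after its values were seen, overlapped at 42.2 ± 14.1 and 42.4 ± 6.22 FPKM (limma adjusted p = 0.944). Of these calls, that of Fkbp5 was lost without WT replicate 1, KO replicate 1 or KO replicate 2, that of Cebpb without any 1 library other than WT replicate 2, and those of Hsd11b1 and Gpt without any 1 library.

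Few genes around Gadd45a or among the other triggers of atrophy passed. Of 12 tested GADD45 and ATF4 stress genes 0 passed in limma and 2 had an unadjusted p under 0.05. Chac1, a glutathione-degrading target of ATF4, had the smallest p, at 7.01 ± 1.76 and 4 ± 0.447 FPKM (SD, n = 3; limma adjusted p = 0.0856). Gadd45b and Gadd45g, named after their values were seen, overlapped between the genotypes at 17.4 ± 4.32 and 19.6 ± 2.66 FPKM and at 36.1 ± 14.8 and 27.3 ± 1.01 FPKM. Of 11 tested denervation and myogenic regulators 1 fell, the transcription factor gene Mef2c (9.77 ± 1.32 to 5.27 ± 1.16 FPKM, limma adjusted p = 0.0474, log2 change -0.79). Of 17 inflammatory triggers of atrophy 1 fell, the cytokine gene Il1b (17.6 ± 2.18 to 6.4 ± 2.96 FPKM, limma adjusted p = 0.0343, log2 change -1.39). The call of Mef2c was lost without any 1 library, and that of Il1b without any but KO replicate 3.

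Over all 11 pathway lists, which hold 214 genes besides the 8, 190 were tested, of which 4 rose (2.11%) and 5 fell (2.63%), against 1.34% and 3.82% of all genes, with a median log2 change of 0.042. With 1 library left out, 0 rose and 0 fell without WT replicate 1 or KO replicate 2, 2 rose and 1 fell without WT replicate 2, 1 rose and 2 fell without WT replicate 3, 1 rose and 1 fell without KO replicate 1, and 1 rose and 5 fell without KO replicate 3. Without both libraries that stood apart, 1 rose (Cebpb) and 1 fell (Dcn).

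**Figure D3:**
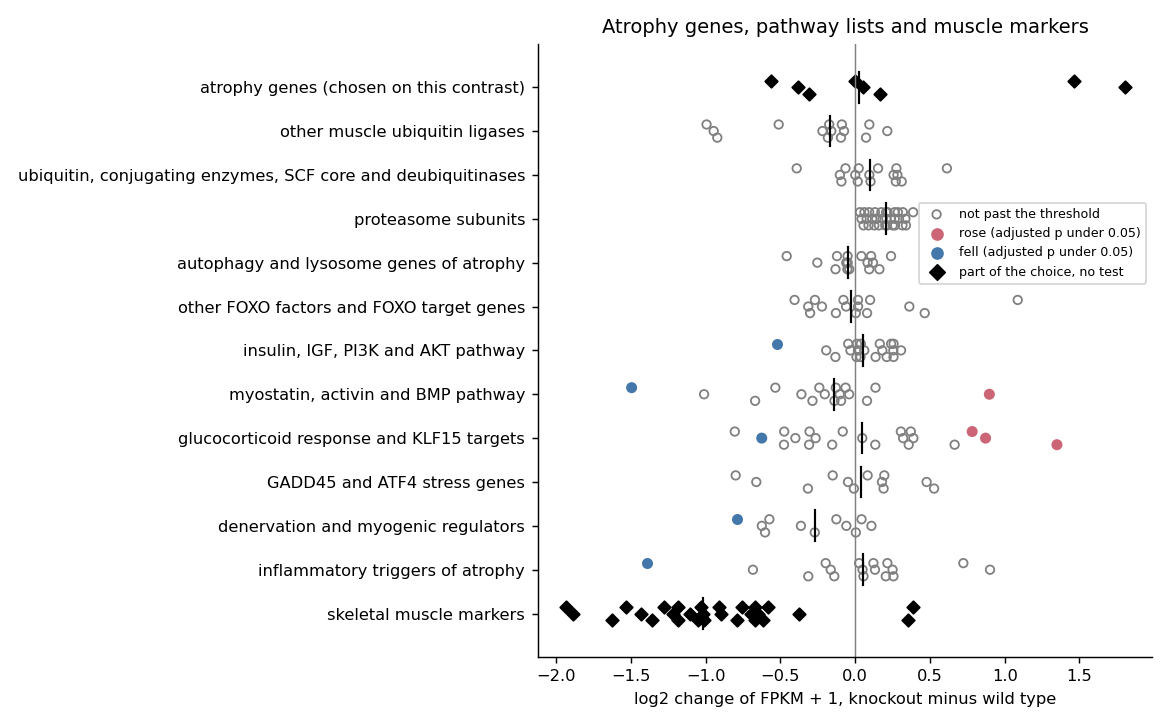
Log2 change of FPKM + 1, KO minus WT (x axis), of the 8 atrophy genes and the skeletal muscle markers (black diamonds, part of the choice and shown without a test) and of the tested genes of each pathway list (rows). Filled red points rose and filled blue points fell with a limma adjusted p under 0.05, open points did not pass, and the vertical bar is the median of the row. Fbxo32 and Trim63 lie at 1.47 and 1.80, the other muscle ligases have a median of -0.17 and the muscle markers one of -1.02.

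The genes whose profile over the 6 libraries was most like that of Fbxo32 or Trim63 were sought by the root mean square difference of centred log2(FPKM + 1) values. For Fbxo32 these were B4galt6, a glycosyltransferase gene (difference 0.0834), Ctsg, a protease of neutrophil granules (0.187), Plppr3 (0.195), Sdf2l1, a protein of the endoplasmic reticulum (0.196), and Ms4a3, a gene of myeloid precursors (0.197). B4galt6 stood at 5.81, 7.07 and 6.64 FPKM in WT replicates 1 to 3 and at 17, 17.4 and 20.4 in KO replicates 1 to 3, close to the pattern of Fbxo32 library by library. For Trim63 they were Dmkn (0.129), Prtn3, another neutrophil granule protease gene (0.228), Ifitm6 (0.237), Ctsg (0.239) and Sdf2l1 (0.244). Dmkn stood at 1.42, 2.1 and 1.64 FPKM in WT and at 13, 7.57 and 7.49 in KO, and like Trim63 was highest in KO replicate 1. Between Fbxo32 and Trim63 the difference was 0.385, which put Trim63 in place 99 for Fbxo32 and Fbxo32 in place 18 for Trim63. These likenesses describe 6 libraries of 2 groups, and every gene that is higher in KO resembles every other to that extent.

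**Figure D4:**
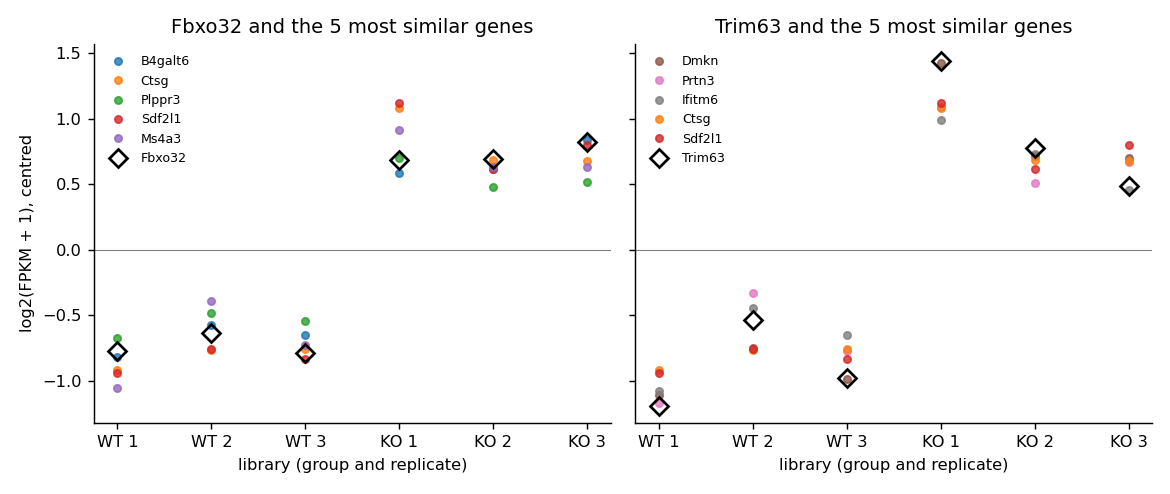
Centred log2(FPKM + 1) (y axis) in each library (x axis) of Fbxo32 (left) and Trim63 (right), drawn as open diamonds, and of the 5 genes with the most similar profile, drawn as coloured points with the same colour for a gene in both panels. Fbxo32 is nearly level within each genotype, and Trim63 is highest in KO replicate 1.

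Markers of several other cell types in bone also moved with the genotype. Of 8 neutrophil markers 3 rose and 0 fell, and their summed FPKM was 11207 to 20233 in WT and 21627 to 27407 in KO, with none listed at 0 throughout. Ctsg rose from 171 ± 11 to 535 ± 88.7 FPKM (SD over n = 3; log2 change 1.63, limma adjusted p = 0.0104) and Mpo, the granule peroxidase gene, from 214 ± 21.4 to 444 ± 58.3 (1.05, limma adjusted p = 0.029). The call of Ctsg was lost without WT replicate 1 and that of Mpo without any 1 library or both that stood apart, and the count of 3 became 0 without WT replicate 1, 2 without WT replicate 2, 1 without any 1 of the other libraries and 2 without both that stood apart. The sums of chondrocyte markers (195 to 286 FPKM in WT, 7.21 to 27.3 in KO), adipocyte markers (487 to 753 and 62.8 to 138), smooth muscle markers (29.6 to 50.5 and 13.1 to 18.4), osteoblast markers (733 to 1512 and 311 to 635), osteoclast markers (626 to 1276 and 167 to 381) and endothelial markers (47.8 to 51.5 and 31.4 to 35.7) were lower in KO. Of the tested markers, 6 of 6 chondrocyte, 5 of 5 adipocyte and 2 of 3 smooth muscle markers fell. So did 4 of 7 osteoblast, 1 of 5 osteoclast and 2 of 5 endothelial markers, and 0 rose in each list. Without both libraries that stood apart, 3 chondrocyte, 5 adipocyte and 3 osteoblast markers fell, and 0 smooth muscle, osteoclast or endothelial markers. Those of B cell precursor (224 to 302 and 147 to 264), erythroid (21699 to 47565 and 23428 to 39916) and macrophage markers (426 to 517 and 332 to 467) overlapped. Gene by gene, 9 of 10 B cell precursor markers had a log2 change below 0 (median -0.64), and 2 fell. Of the macrophage markers 6 of 6 were below 0 (median -0.13), and 1 fell. Erythroid markers had 5 above and 2 below 0 (median 0.059), and 0 fell. In these 3 lists 0 rose. Without both libraries that stood apart, 1 B cell precursor and 0 macrophage markers fell. Cardiac markers summed to 10.9 to 16.7 FPKM in WT and 2.07 to 4.48 in KO, with 1 of 6 listed at 0 in every library. The 1 cardiac marker tested fell, also without both libraries that stood apart, but not without WT replicate 1 or without KO replicate 2. The part of these cell types in the levels of Fbxo32, Trim63 and the other 6 genes was not tested.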

How the data were processed

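The authors deposited 1 table of FPKM values for 54532 genes, with 1 column for each of the 6 libraries. The build mm10 and the aligner Bowtie 0.12.2 are named in the submitters' processing notes. How reads were counted and scaled, with which annotation and whether by strand, is not given in the sources used here. Per the labels' protocols, Trizol was used for extraction and a TruSeq kit for libraries of total RNA. Gene symbols, positions and exon lengths came from GENCODE M21, which matched 54495 identifiers and not 37.

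Multiplied by exon length, FPKM values moved in fixed steps: within 0.01 reads, whole numbers resulted in all libraries for 96.9% of 29600 genes above 0. Totals of reads are sums over those genes, and statements on counting error cover counting error only.

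Log2(FPKM + 1) values, which understate changes of low genes, were compared with limma 3.58.1 (R 4.3.3, trend on expression) over genes with a mean of at least 1 FPKM. P-values were adjusted by Benjamini-Hochberg over all 13619 genes, with a threshold of 0.05. The procedure was tested on simulated data. "Rose" and "fell" are used of genes past that threshold. Beside the 8 genes, up to 4 genes past the threshold were named per pathway list and for skeletal muscle (otherwise the 1 with the smallest p), up to 2 per other marker list that moved and the 5 most similar profiles, without predicted genes, pseudogenes and antigen receptor segments. Not every marker allowed by this rule is named. A list member that the rule names is not reported here. The 8 genes and the lists were chosen with earlier results of these data known. Alternatives covered the pseudocount, the filter, scaling, variance model, library weights, replicate block and leaving out each library, and 3 were chosen after seeing the data. Replicate numbers were those in the sample titles. Figures were drawn with matplotlib 3.10.9.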

Additional observations from a re-analysis of the deposited data

How the results depend on the processing

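Under 15 alternative settings, and 3 more chosen after seeing the data, the log2 changes of Fbxo32 and Trim63 stayed above 0. Both genes were chosen as higher in KO, with every KO value above every WT value. That outcome was set by the choice, and nothing is read from it. The log2 change of Fbxo32 was 1.62 with a pseudocount of 0.1, 1.55 with 0.5 and 1.61 by limma voom on the recovered reads. The count of genes past the threshold, 703, was 143 with no filter on low values, 365 with a mean of at least 5 FPKM, 3354 with array weights, 239 without both libraries that stood apart and 1206 with the trend with exon length removed, and 62 to 418 with 1 library left out. The 4 pathway genes that rose became 1 with no filter, 19 with array weights, 1 without both libraries that stood apart and 0 to 2 with 1 library left out. The 5 that fell became 0 with no filter, 2 with a mean of at least 5 FPKM, 17 with array weights, 1 without both libraries that stood apart, 9 with the length trend removed and 0 to 5 with 1 library left out. The cause was not tested.

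Whether same-numbered libraries were paired is not named in the labels. Their deviations from the group means correlated at -0.493, -0.27 and 0.158. Those of WT replicate 2 and KO replicate 1, the 2 libraries that stood apart, correlated at 0.545. With that shared deviation in the data, these values cannot decide on pairing. With the replicate block 127 genes passed, and 0 pathway genes rose and 0 fell. Of the other genes recomputed, 40 passed the threshold, and 0 of these 40 changed direction under an alternative. Because the 40 had passed in these same libraries, that outcome was largely set by their selection, and nothing is read from it. Calls lost among the 40 were 17 to 32 with 1 library left out (32 without WT replicate 1), 29 with no filter, 27 with the replicate block and 24 without both libraries that stood apart. With the block 0 muscle markers passed. Of the 8 atrophy genes Mstn, at 37 to 141 reads, had the fewest reads.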
